A study of Mus musculus with 146 samples.

Results

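Cultures of bone marrow-derived macrophages that held much RNA of the DNA replication helicase were compared with cultures that held little of it. Each of 146 libraries was given an MCM score from the 6 genes Mcm2, Mcm3, Mcm4, Mcm5, Mcm6 and Mcm7. For each gene, log2(CPM + 1) was taken, where CPM is the count of the gene scaled to the depth of the library, the mean of the plate was subtracted, and the rest was converted to z-scores over the 146 libraries. The score was the mean of the 6 z-scores, so the groups were chosen by the measured RNA levels of these genes. The 36 libraries with the highest scores are called replication-high, the 36 with the lowest replication-low, and the other 74 middle. These names describe RNA levels, since no measure of DNA synthesis was used here.

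The libraries came from outbred CFW mice (Crl:CFW(SW)-US_P08) aged 16 weeks, and their marrow was cultured for 5 days with L929-conditioned medium, in which a fibroblast line has released macrophage growth factor. No treatment was given, so both groups had the same strain, age and culture by label, and the score alone set them apart in the choice of libraries. The replication-high group held 24 libraries labelled female and 12 labelled male, and the replication-low group 17 and 19. Sequencing was of polyadenylated RNA, in libraries prepared on 7 plates, and the replication-high group had 21 collection date labels and the replication-low group 17.

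Cells prepare for replication in G1 phase by loading a ring of the 6 MCM proteins onto each origin, a step called licensing that needs the origin recognition complex, Cdc6 and Cdt1. In S phase the Cdc7-Dbf4 kinase, Cdc45 and the GINS complex turn the ring into an active helicase, and polymerases copy both strands behind it. Many genes of this machinery are transcribed from E2F-regulated promoters, which the retinoblastoma family holds silent in resting cells and cyclin-dependent kinases release. Marrow macrophages divide while growth factor (M-CSF) is present and leave the cycle as they mature.

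The 5 RefSeq promoter windows below belong to the replication genes outside the score with the smallest p in the comparison, and are shown because their transcripts moved with the helicase. Each sequence is the 250 bases before the start that RefSeq gives the gene (GRCm38.p6), read 5′ to 3′ on its strand. The windows are chr10:128237816-128238065 on the plus strand for Timeless, chr2:5012792-5013041 on the minus strand for Mcm10, chr11:5878257-5878506 on the minus strand for Pold2, chr11:98907901-98908150 on the plus strand for Cdc6 and chr11:75348384-75348633 on the minus strand for Rpa1. GENCODE, used here for gene names, has the outermost start of Timeless upstream of its window, at base 128232065, and that of Cdc6 at base 98907801, so both windows lie within the GENCODE genes. Part of the Pold2 window does too, since GENCODE starts this gene at base 5878292. Capitals mark an E2F word or a CCAAT box, the binding sequence of NF-Y, on either strand.
Timeless: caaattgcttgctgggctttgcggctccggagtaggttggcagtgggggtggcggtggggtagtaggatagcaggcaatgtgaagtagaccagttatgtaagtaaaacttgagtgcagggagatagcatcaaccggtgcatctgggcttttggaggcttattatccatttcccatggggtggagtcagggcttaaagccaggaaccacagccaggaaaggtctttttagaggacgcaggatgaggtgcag
Mcm10: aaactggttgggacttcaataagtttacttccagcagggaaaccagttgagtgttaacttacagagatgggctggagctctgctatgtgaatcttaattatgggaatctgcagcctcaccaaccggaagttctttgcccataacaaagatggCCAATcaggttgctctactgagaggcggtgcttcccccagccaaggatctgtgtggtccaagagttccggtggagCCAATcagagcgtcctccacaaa
Pold2: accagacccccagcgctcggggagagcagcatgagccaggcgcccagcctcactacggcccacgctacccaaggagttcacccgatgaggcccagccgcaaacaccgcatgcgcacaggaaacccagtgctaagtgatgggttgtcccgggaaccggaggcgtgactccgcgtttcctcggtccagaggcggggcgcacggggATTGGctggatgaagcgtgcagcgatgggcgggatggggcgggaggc
Cdc6: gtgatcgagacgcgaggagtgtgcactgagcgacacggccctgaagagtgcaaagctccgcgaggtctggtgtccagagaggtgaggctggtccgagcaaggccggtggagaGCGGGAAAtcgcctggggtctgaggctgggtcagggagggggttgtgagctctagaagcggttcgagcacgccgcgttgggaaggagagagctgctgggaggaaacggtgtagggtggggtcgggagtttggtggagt
Rpa1: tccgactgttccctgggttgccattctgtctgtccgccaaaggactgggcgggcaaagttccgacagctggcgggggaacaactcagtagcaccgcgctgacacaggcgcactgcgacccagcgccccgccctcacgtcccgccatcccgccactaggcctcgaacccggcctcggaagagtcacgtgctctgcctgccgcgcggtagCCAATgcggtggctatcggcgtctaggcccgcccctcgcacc

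The Cdc6 window held 1 E2F word, GCGGGAAA, starting 138 bases before the start. Mcm10 held 2 CCAAT boxes, Pold2 and Rpa1 held 1 each, and the Timeless window, which is not at its GENCODE start, held neither. The E2F words searched were TTTCCCGC, TTTCGCGC, TTTGCCGC and TTTGGCGC on both strands, and none of them contains CCAAT or ATTGG. Such a word was in 517 of 27025 windows of this length, 1.91%, and a CCAAT box in 34.5%. Among tested genes with a window, 330 of 9297 held an E2F word (3.55%). Among those higher in replication-high cultures by at least 1.5-fold it was 16 of 305 (5.25%), and among those lower by as much 7 of 452 (1.55%). By list, 5 of 15 licensing genes, 5 of 13 G1/S regulators and 2 of 15 repair genes held one. So did 2 of 24 fork, 1 of 20 nucleotide supply, 1 of 14 chromatin assembly and 0 of 21 brake genes. Among lists described below, cohesin and condensin had 3 of 10 and ribosome biogenesis 3 of 16. The list of LXR targets and sterol efflux, mostly lower in replication-high cultures, had 2 of 10. These are matches of letters only.

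The score was uneven over the cultures. Replication-low scores ran from -4.39 to -0.54 with a median of -0.98, and replication-high scores from 0.68 to 1.64 with a median of 0.96. The first libraries left out had -0.49 and 0.64, so neither border falls in a gap. The low side was the wider of the extremes, with an SD of 0.878 in replication-low and 0.267 in replication-high scores. The lowest value, -4.39, was that of male 37 on plate 4, a library of 41196188 counts, and the next was -3.19.

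**Figure D1:**
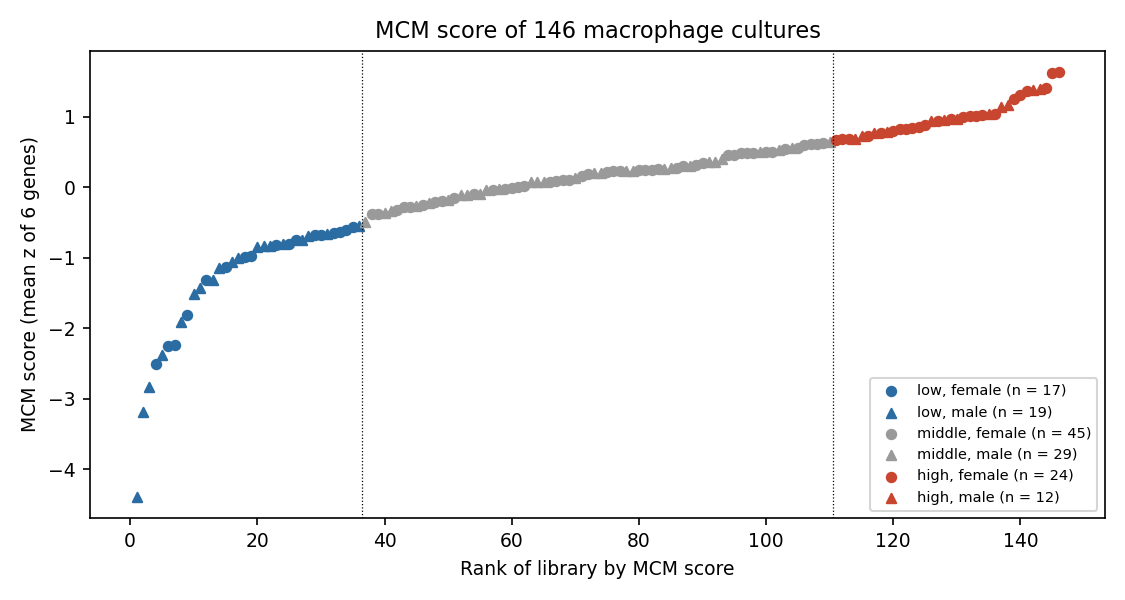
MCM score (mean z of 6 genes, vertical axis) of each of the 146 libraries by rank (horizontal axis), coloured by group, with circles for mice labelled female and triangles for mice labelled male; dotted lines mark the group borders. The low end falls away to -4.39, while the high end stops at 1.64.

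The 6 score genes are described without a test, because they chose the groups. Mcm2 had 50.9 to 147 CPM in replication-low libraries (median 102) and 136 to 192 in replication-high libraries (median 162). Mcm3 medians were 138 and 215 CPM, Mcm4 125 and 181, and Mcm5 136 and 218. Mcm6 medians were 232 and 363 CPM, and Mcm7 medians 65.1 and 93.5, where Mcm7 is uncertain because 25.0% of its 50-base stretches also occur in another gene. Every score gene overlapped between the groups. Their summed level was 451 to 1088 CPM in replication-low libraries (median 820) and 1096 to 1430 in replication-high libraries (median 1223). The middle libraries had a summed median of 1175, near that of the replication-high group. In a principal component analysis of the deposited log2 values, with plate means removed and the score genes left out, the first component held 25.7% of the variance and followed the score (Pearson's r 0.83, Spearman's rho 0.76) over 146 libraries that share plates. Without the 2 libraries farthest from the median score, r was 0.81.

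Depth was 21342324 to 89479661 counts in replication-high libraries and 14483441 to 101775620 counts in replication-low libraries. It differed by 0.08 in log2 (permutation test, two-sided, p = 0.581). The share of libraries labelled male was 33.3% in the replication-high and 52.8% in the replication-low group (difference -19.4 percentage points, permutation test, p = 0.144). The sex-linked transcripts went against the label in 1 replication-high, 3 replication-low and 2 middle libraries. The groups also differed in collection dates. There were 50 of the 72 libraries under the 13 date labels that held both groups, and 1 label held 5 libraries that were all replication-low. The fit on all genes called 8020 genes, 7919 without the libraries against their label, 7855 without male 37 and 7194 without 2 date labels whose 8 libraries held 7 replication-low cultures.

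Most of the measured transcriptome moved with the score. Of 11866 genes tested outside the score, 8020 passed an adjusted p of 0.05, which is 67.6%. Replication-high cultures had 3857 genes higher (32.5%) and 4163 lower (35.1%). The differences were mostly small, with a median absolute log2 difference of 0.17 and a median of -0.01. At least 1.5-fold differences were found for 397 higher (3.35%) and 607 lower genes (5.12%), 1004 in all (8.46%). The groups were sorted on RNA of the same libraries, so each p tests whether a gene varied with helicase RNA and not the effect of a treatment. With bulk RNA, fewer cells of a type and less RNA per cell cannot be told apart.

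The genes of S phase were higher nearly as a whole. In 5 lists, for origin licensing, the replication fork, nucleotide supply, chromatin assembly and DNA repair, 96 of 107 tested genes were higher in replication-high cultures (89.7%, against 32.5% of all tested genes), 1 was lower and 10 did not pass. The median log2 difference over the 107 genes was 0.46, against -0.01 over all tested genes. Only Ssrp1, a subunit of the FACT histone chaperone, had groups that did not overlap (1 gene of 11866, 0.00843%). It had 170 to 222 CPM in replication-low libraries and 229 to 282 in replication-high libraries, a log2 difference of 0.29 ± 0.02 (SE, adjusted p = 1.26e-19).

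Among licensing and firing genes, 19 of 21 rose, 1 fell and 1 did not pass, with a median log2 difference of 0.38. Cdc6, which loads the MCM ring, had 9.1 to 27.1 CPM in replication-low libraries (median 19.5) and 24.5 to 42.2 in replication-high libraries (median 33.5). Its log2 difference was 0.90 ± 0.06 (adjusted p = 1.27e-20). The groups overlapped, yet no replication-low library reached the replication-high median. Orc1, a subunit of the origin recognition complex, had medians of 9.94 and 16.6 CPM and a log2 difference of 0.75 ± 0.05 (adjusted p = 7.94e-20). Gins1, a subunit of the helicase, differed by 0.79, Mcm10, which helps to activate the helicase, by 0.64, and Recql4 by 0.62. The loader Cdt1 and its inhibitor geminin (Gmnn) rose by less, 0.32 and 0.37. The kinase subunit Dbf4 differed by 0.19. The origin recognition subunits Orc2 and Orc3 differed by 0.17 and 0.14, Orc4 did not pass at -0.04, and Orc5 fell by 0.19 (the lowest of the list). Recql4, Cdt1, Gmnn, Dbf4 and the Orc genes other than Orc1 were picked after their values were seen.

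The fork list had 27 of 29 genes higher, none lower, and a median of 0.49. Timeless, a component of the complex that stabilises the fork, had 11.9 to 33.6 CPM in replication-low libraries (median 24.2) and 33.6 to 54.97 in replication-high libraries (median 42.7). Its log2 difference was 0.97 ± 0.06 (adjusted p = 8.46e-23) and it was higher on 7 of 7 plates. The 2 groups met only at their edges. Pold1, the catalytic subunit of polymerase delta, differed by 0.87 ± 0.06 (medians 24.9 and 41.5 CPM), and its partner Pold2 by 0.60 ± 0.04 (15.4 and 22.5 CPM). Pold3, another subunit, did not pass (0.04). Lig1, which seals nicks between Okazaki fragments, differed by 0.69 ± 0.05, and Rpa1, of the single-strand binding protein RPA, by 0.62 ± 0.04. Rpa2 rose by 0.38, and Rpa3 did not pass (0.10). Pcna, the sliding clamp often used as a proliferation marker, rose by 0.24 ± 0.03, with medians of 186 and 217 CPM, which was among the smaller differences of the list. Pold3, Rpa2, Rpa3 and Pcna were picked after their values were seen.

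**Figure D2:**
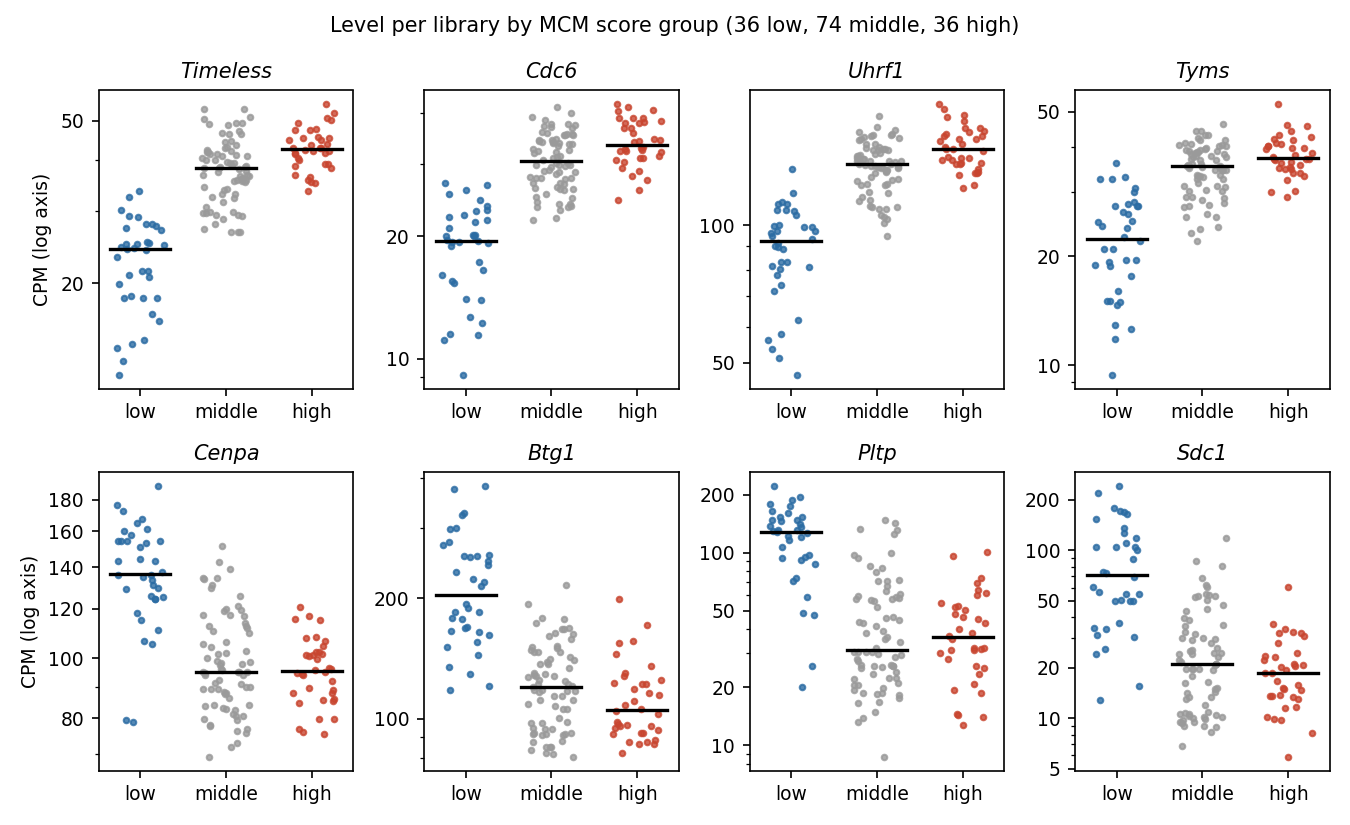
CPM per library (log axis, scale set per gene) of 8 genes in the 36 replication-low, 74 middle and 36 replication-high libraries; each point is a library and the bar is the median. In each panel the middle median lies nearer to the replication-high than to the replication-low median.

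Nucleotide supply followed the fork. In that list 17 of 21 genes were higher and 4 did not pass, with a median of 0.45. Tyms, thymidylate synthase, had 9.37 to 36.1 CPM (median 22.3) in replication-low and 29.1 to 52.5 (median 37.3) in replication-high libraries. The log2 difference was 0.83 ± 0.07 (adjusted p = 1.61e-15), and the ranges overlapped. Cad, which starts pyrimidine synthesis, differed by 0.81 ± 0.06, and Gart, of purine synthesis, by 0.57 ± 0.04. The ribonucleotide reductase subunits Rrm1 and Rrm2 rose by 0.46 and 0.60. The purine and pyrimidine enzymes Paics and Umps were at 0.02 and 0.03, and Samhd1, which degrades deoxynucleotides, was at -0.04. None of these 3 passed. Rrm2 and these 3 were picked after their values were seen.

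Chromatin assembly genes were higher in 15 of 16 cases, with a median of 0.43. Uhrf1, which brings the maintenance methyltransferase to newly copied DNA, had 46.9 to 133 CPM (median 92.3) in replication-low and 120.7 to 184 (median 147) in replication-high libraries. The log2 difference was 0.80 ± 0.05 (adjusted p = 4.13e-22), and the ranges overlapped between 120.7 and 133 CPM. The methyltransferase Dnmt1 itself, picked after its values were seen, rose by 0.38 ± 0.03. Chaf1b, a subunit of the histone chaperone CAF-1, differed by 0.87 ± 0.06 and Asf1b, another histone chaperone, by 0.59 ± 0.05. Chaf1a, the large subunit of CAF-1, differed by 0.66 but is uncertain, with 49.4% of its 50-base stretches shared.

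Repair and checkpoint genes were higher in 18 of 20 cases, with a median of 0.48. Rad54l, which acts in homologous recombination, differed by 0.89 ± 0.06 (medians 17.1 and 31.5 CPM). The mismatch repair gene Msh6 rose by 0.42. The checkpoint kinase gene Chek1 rose by 0.51, while Atr, the kinase above it, was at 0.05 and did not pass. Chek1 and Atr were picked after their values were seen.

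Upstream of S phase, 14 of 18 G1/S regulators were higher and 1 was lower (32.5% and 35.1% of all tested genes were). The other 3 did not pass, and the list median was 0.34. Ccne1, cyclin E1, had 10.3 to 38.2 CPM (median 20.7) in replication-low and 26.4 to 48.02 (median 35.5) in replication-high libraries. The log2 difference was 0.85 ± 0.07 (adjusted p = 3.14e-17), and 1 replication-low library lay above the replication-high median. Ccne2 rose by 0.60 and the activator E2f1 by 0.57. E2f8, an atypical E2F that represses the same targets, rose by 0.52. The D cyclins differed in sign. Ccnd1 rose by 0.61 ± 0.07 (medians 433 and 615 CPM; uncertain, with 20.9% of its stretches shared), Ccnd3 rose by 0.34, and Ccnd2 fell by 0.35 ± 0.08 (89.0 and 72.4 CPM). Myc was at -0.07 ± 0.06 and did not pass (medians 76.5 and 76.1 CPM). Myc and the D cyclins were picked after their values were seen.

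The brakes on the cycle were mostly lower, with 16 of 24 lower (35.1% of all tested genes were), 3 higher and 5 that did not pass, and a median of -0.31. Btg1, an antiproliferative factor that recruits RNA deadenylases, had 118 to 382 CPM (median 204) in replication-low and 82.1 to 199.6 (median 105) in replication-high libraries. The log2 difference was -1.06 ± 0.09 (adjusted p = 1.65e-16). The groups overlapped, but all 36 replication-low libraries lay above the replication-high median. Btg2, of the same family, was at -0.79, and Mxd4, an antagonist of Myc, at -0.67 ± 0.06 (58.3 and 36.47 CPM). Among inhibitors of cyclin-dependent kinases, Cdkn1b (p27) fell by 0.43 ± 0.06 (55.7 and 45.98 CPM). Cdkn1a (p21), also a target of p53, rose by 0.41 ± 0.08 (166 and 227 CPM). Cdkn1c (p57) was lower by 1.44 on the log2 scale at 2.59 and 1.01 CPM, and is uncertain (26.5% shared). The retinoblastoma gene Rb1 was at -0.01 and did not pass. Cdkn1a, Cdkn1c and Rb1 were picked after their values were seen. Of 11 p53 targets tested, Cdkn1a among them, 5 were higher (45.5%) and 3 lower (27.3%), near the shares of all tested genes (32.5% and 35.1%). The lower ones were Pmaip1 (-0.81), Mdm2 (-0.58) and Trp53inp1 (-0.58).

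Genes of mitosis moved far less than those of S phase. Of 28 tested, 16 were higher and 4 lower (32.5% and 35.1% of all tested genes were), 8 did not pass, and the median was 0.12. Mki67, the proliferation marker, had medians of 1299 and 1512 CPM and a log2 difference of 0.21 ± 0.04. Ccnb1, Aurka and Cdc20 were at 0.06, 0.03 and -0.08 and did not pass. These 4 were picked after their values were seen. Bub1, a spindle checkpoint kinase, rose by 0.52 ± 0.05, and Cenpa, the centromeric histone H3, went the other way. Cenpa had 78.97 to 189 CPM (median 137) in replication-low and 75.5 to 120.7 (median 95.2) in replication-high libraries, a log2 difference of -0.62 ± 0.05 (adjusted p = 2e-18). Nearly the whole replication-low group, 34 of 36 libraries, lay above the replication-high median of Cenpa. Without the 2 date labels named above, 12 mitosis genes were higher and 7 lower. Cohesin and condensin genes were higher in 12 of 14 cases (32.5% of all tested genes were) at a median of 0.19.

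**Figure D3:**
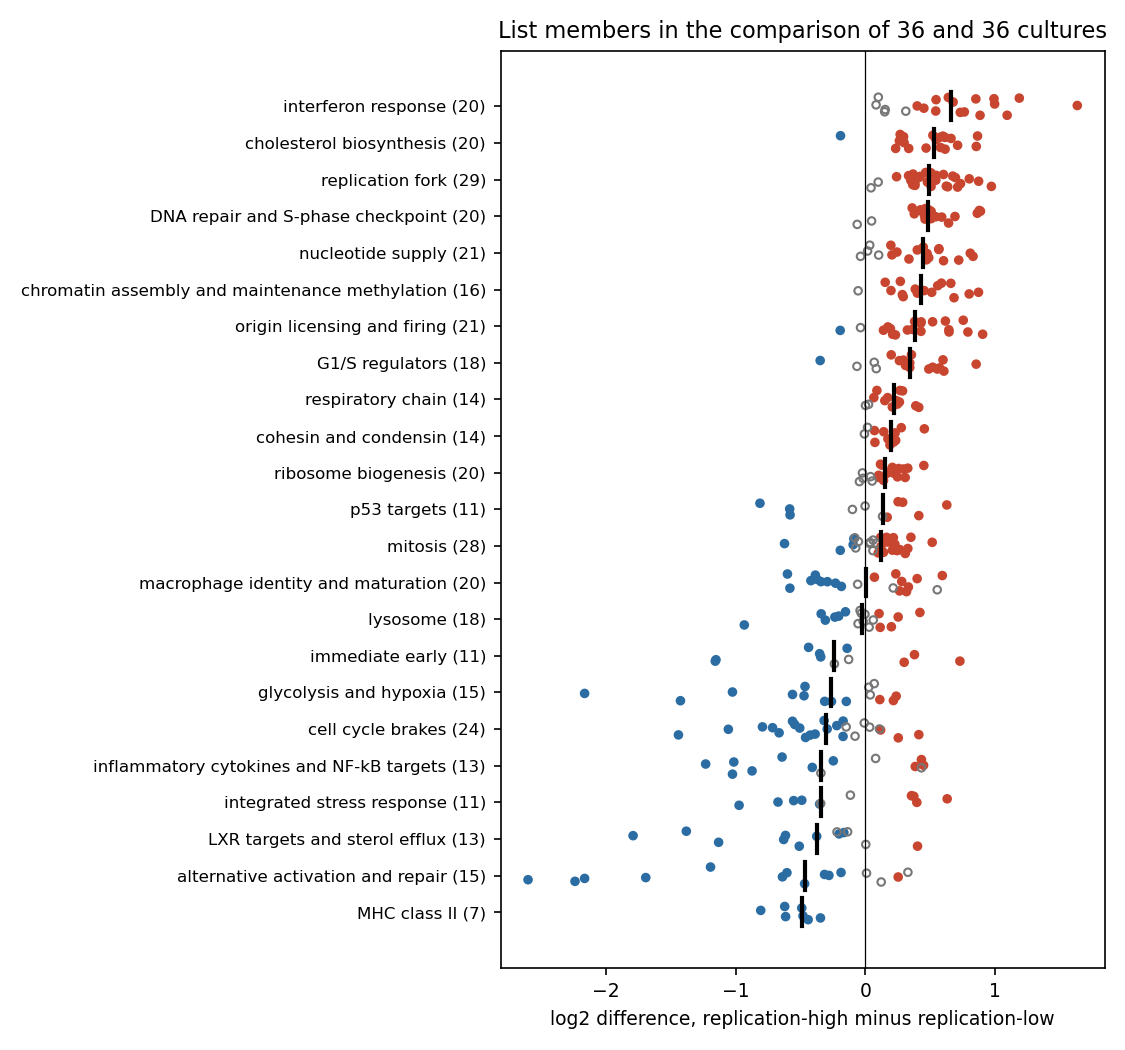
Log2 difference (replication-high minus replication-low, horizontal axis) of each tested member of each list, with the number tested in brackets; filled points passed an adjusted p of 0.05, open points did not, and the bar is the median of the list. The 5 S-phase lists have medians from 0.38 to 0.49, mitosis stands at 0.12 and the brakes at -0.31.

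Growth and energy genes rose by small amounts. Of all tested genes 32.5% were higher and 35.1% lower. Ribosome biogenesis genes were higher in 15 of 20 cases and lower in none (median 0.15), led by Bop1 (0.45), of the large subunit pathway. Respiratory chain genes were higher in 12 of 14 cases and lower in none (median 0.22). Atp5b, of ATP synthase, had medians of 728 and 943 CPM, and Cyc1, cytochrome c1, 66.6 and 88.7 CPM. The list of glycolysis and hypoxia genes split, with 3 higher, 9 lower and 3 that did not pass. Its lower members were led by Vegfa (-2.17), Ankrd37 (-1.43) and Ndrg1 (-1.03), which are induced by low oxygen. Among the glycolytic genes, Pgk1 was lower (-0.47 ± 0.08) and Pkm higher (0.22 ± 0.03). Both are uncertain, with 57.4% and 25.3% shared. The glycolytic genes Ldha and Slc2a1 were at 0.07 and 0.03 and did not pass. Ndrg1, Ldha and Slc2a1 were picked after their values were seen.

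Cholesterol genes differed in direction by list. Of 20 biosynthesis genes 19 were higher and 1 was lower (32.5% and 35.1% of all tested genes were), with a median of 0.53. The lower one was the sterol reductase gene Tm7sf2 (-0.19, named after its value was seen). Mvk, mevalonate kinase, had 5.18 to 20.4 CPM (median 11.5) in replication-low and 12.8 to 24.8 (median 17.3) in replication-high libraries. The log2 difference was 0.61 ± 0.07 (adjusted p = 9.35e-12). Sqle, squalene epoxidase, rose by 0.52 and was picked after its values were seen. Fdft1 (0.87) and Acat2 (0.86) were the largest and are uncertain, with 25.6% and 41.9% shared. The other list held LXR targets and sterol efflux genes, with the LXR genes themselves and lipid genes such as Srebf1 and Npc2. Of its 13 genes, 9 were lower and 1 was higher (35.1% and 32.5% of all tested genes were). The other 3 did not pass, and the list median was -0.38. Pltp, the phospholipid transfer protein, had 20.04 to 222 CPM (median 128) in replication-low and 12.7 to 100.3 (median 36.3) in replication-high libraries, a log2 difference of -1.79 ± 0.15 (adjusted p = 6.64e-17). The efflux pumps Abcg1 and Abca1 were at -1.38 ± 0.14 and -1.13 ± 0.11, and Apoe at -0.63 ± 0.13 (medians 1437 and 994 CPM). The exception was Lpcat3, a phospholipid remodelling enzyme, at 0.40. The LXR gene Nr1h3 was at -0.14 and did not pass. Abcg1, Abca1, Apoe and Nr1h3 were picked after their values were seen.

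Among list members, the largest differences of single genes were among repair and matrix genes, though several other lists had medians farther from 0. Of 15 genes of alternative activation and repair, 11 were lower and 1 was higher (35.1% and 32.5% of all tested genes were). The other 3 did not pass, and the list median was -0.47. Sdc1, the heparan sulphate proteoglycan syndecan-1, had 12.8 to 242 CPM (median 70.96) in replication-low and 5.87 to 60.6 (median 18.6) in replication-high libraries. The log2 difference was -2.24 ± 0.18 (adjusted p = 7.77e-17). The ranges overlapped between 12.8 and 60.6 CPM, and 34 replication-low libraries lay above the replication-high median. Vegfa, the vascular growth factor, had 32.8 to 486 CPM (median 212) and 12.5 to 149 (median 50.7) in the same order, a log2 difference of -2.17 ± 0.18 (adjusted p = 1.22e-16). Thbs1, thrombospondin-1, was at -1.70 ± 0.22, Fn1, fibronectin, at -1.20 ± 0.22, and Arg1, arginase-1, at -2.60 ± 0.44. The Arg1 ranges were wide, 1.1 to 434 CPM against 0.181 to 129. The mannose receptor Mrc1 was at -0.47. Arg1, Fn1 and Mrc1 were picked after their values were seen.

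Of 20 genes of macrophage identity 8 were higher (40%), 9 lower (45%) and 3 did not pass, near the shares of all tested genes (32.5% and 35.1%), and the median was 0.00. The M-CSF receptor Csf1r was nearly level, at 1653 and 1736 CPM (0.07 ± 0.03), and Cd68 did not pass at 1718 and 1701 CPM (-0.06 ± 0.03). Both are defining transcripts of macrophages, and Cd68 was at 1298 CPM or more and Csf1r at 1380 CPM or more in every library of both groups. Adgre1 (F4/80) had 528 to 852 CPM (median 675) in replication-low and 438 to 778 (median 566) in replication-high libraries, a log2 difference of -0.29 ± 0.04 (adjusted p = 6.57e-09). Trem2, a lipid-sensing receptor, was at -0.39 ± 0.04 (566 and 462 CPM). Itgam (CD11b) was at -0.60 and is uncertain (67.3% shared). The complement genes C1qa, C1qb and C1qc rose by 0.59, 0.28 and 0.40. Csf1r, Cd68 and the complement genes were picked after their values were seen. Of 18 lysosome genes 5 were higher (27.8%) and 6 lower (33.3%), also near those shares.

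Immune programmes moved both ways. Interferon response genes were higher in 15 of 20 cases (32.5% of all tested genes were) and lower in none, with a median of 0.66. Oasl2 had medians of 10.6 and 22.3 CPM and a log2 difference of 1.09 ± 0.22 (adjusted p = 1.83e-05). The ranges overlapped almost fully, 3.87 to 39.7 against 3.34 to 102 CPM. The list median was 0.86 within libraries labelled female and 0.31 within those labelled male, where 14 and 5 genes passed (26.4% and 20.5% of all tested genes were higher there). No interferon gene passed the test of that difference. All 7 MHC class II genes were lower (35.1% of all tested genes were), led by their activator Ciita (-0.81 ± 0.14), with a median of -0.49. Within libraries labelled female 7 of 7 were lower (median -0.58), and within those labelled male 1 of 7 (median -0.31). Of all tested genes 26.2% and 17.1% were lower there. No MHC class II gene passed the test of the difference between the sexes. With collection date in place of plate, or with a mitosis score as a covariate, 2 of the 7 passed, and the list median was -0.31 and -0.32. Of 13 inflammatory genes 7 were lower (53.8%, against 35.1% of all tested genes) and 3 higher (23.1%, against 32.5%). Without the 2 date labels named above, 3 were lower and 4 higher, and with a mitosis score as a covariate 3 were lower and 1 higher. The summed level of the inflammatory list had medians of 544 CPM in replication-low and 639 in replication-high libraries. Nos2 was at -1.23 and Tnf at 0.45 (Tnf picked after its values were seen). The shares of integrated stress response genes, 36.4% higher and 45.5% lower, were near those of all tested genes (32.5% and 35.1%). Of these 11 integrated stress response genes, Ddit4 (-0.97), Atf5 (-0.67) and 3 others were lower, while the serine and one-carbon enzymes Shmt2 (0.63) and Psat1 (0.37) were among 4 that were higher.

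Markers of other marrow cells differed between the groups in some lists. Of 9 progenitor and monocyte markers 5 were lower and 1 was higher (35.1% and 32.5% of all tested genes were), with a median of -0.48. With collection date in place of plate, 3 were lower and 3 higher, with a median of -0.20. The summed level of the 9 markers was 1106 to 4601 CPM in replication-low (median 3199) and 828 to 3236 in replication-high libraries (median 1684). Most of that sum was F13a1, a monocyte transglutaminase, with medians of 2448 and 1066 CPM (-1.12 ± 0.13, adjusted p = 9.61e-12). The chemokine receptor gene Ccr2 was at -0.76 ± 0.14, while the progenitor genes Kit and Myb did not pass and Cd34 rose by 0.41. These 3 were picked after their values were seen. Osteoclast genes, which differentiating macrophages can switch on, were lower in 6 of 7 cases (35.1% of all tested genes were). Atp6v0d2 was at -1.86 ± 0.21 (49.3 and 12.0 CPM), while Nfatc1, the 1 that was higher, was at 0.12 ± 0.04 (adjusted p = 0.00584). Within libraries labelled female the list median was -0.90 with 5 of 7 lower, and within those labelled male it was -0.14 with 3 of 7 lower (26.2% and 17.1% of all tested genes were lower there). No osteoclast gene passed the test of that difference. With a mitosis score as a covariate 3 of the 7 were lower, with a median of -0.36. Their sum was 124 to 366 CPM in replication-low and 117 to 181 in replication-high libraries. Of the dendritic cell genes 4 of 6 were lower (66.7%, against 35.1% of all tested genes), but 4 of the list stayed under a median of 1 CPM. The sums were 16.4 to 124 and 14.0 to 40.1 CPM.

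Megakaryocyte genes were lower in 3 of 3 cases (35.1% of all tested genes were), with a median log2 difference of -0.91. The 2 that differed by at least 1.5-fold had few counts, with medians of 2.73 and 1.53 CPM for Ppbp and 1.23 and 0.80 for Itga2b. The sums of the list were 51.3 to 112 CPM in replication-low (median 72.1) and 32 to 106 CPM in replication-high libraries (median 57.9). Granulocyte precursor markers summed to medians of 400 CPM in replication-low and 402 in replication-high libraries (148 to 1222 and 140 to 1814). Of 13 of them 5 were lower (38.5%, near the 35.1% of all tested genes) and none was higher. Within libraries labelled female 8 of 13 were lower (median -0.65), and within those labelled male 0 of 13 (median 0.01). Of all tested genes 26.2% and 17.1% were lower there. No granulocyte precursor gene passed the test of the difference between the sexes. With collection date in place of plate, none of the 13 was lower and 1 was higher. The median sums of the remaining lists were 3.80 and 2.02 CPM for B cells, 1.01 and 0.73 for T and NK cells, 0.17 and 0.28 for erythroid cells, 1.51 and 1.16 for mast cells and 3.94 and 3.19 for stromal cells, in the order replication-low, replication-high. The part of any of these cells in the other results was not tested, except that with a granulocyte precursor score as covariate 8032 genes were called.

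Outside the lists, the genes with the largest rise included Ch25h, cholesterol 25-hydroxylase (log2 difference 1.67 ± 0.30, medians 12.1 and 35.9 CPM), the chemokine gene Ccl12 (1.47 ± 0.19), Uaca (1.41 ± 0.12, 5.48 and 13.7 CPM), Zfp618 (1.38 ± 0.16) and Nes, which encodes nestin (1.37 ± 0.16). The Ch25h ranges overlapped widely, 1.04 to 138 against 7.17 to 124 CPM. The genes with the largest fall included Bach2, a transcriptional repressor. Bach2 had 0.822 to 4.89 CPM (median 3.34) in replication-low and 0.246 to 3.11 (median 0.843) in replication-high libraries (-1.90 ± 0.14, adjusted p = 2.27e-18). Gadd45a, a growth arrest gene, was at -1.38 ± 0.11 (36.7 and 14.7 CPM), Fbxo32, a ubiquitin ligase gene induced in atrophy, at -1.40 ± 0.15, and F10, coagulation factor X, at -1.39 ± 0.14 (123 and 47.1 CPM).

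The 74 middle libraries, which entered neither group, gave a test in other cultures. A line was fitted for each gene on the score within them, with plate as covariate. Of 13101 genes tested 1235 passed (9.43%), 708 with a positive (5.40%) and 527 with a negative slope (4.02%). Of these, 1208 had also been tested between the extremes, and 1167 were called there with the same sign and 2 with the opposite sign. Of the 107 genes of the S-phase lists 83 had a positive slope past the threshold and 0 a negative one. Timeless had a slope of 0.45 ± 0.05 in log2 per unit of score (adjusted p = 6.25e-11), Uhrf1 0.37 ± 0.03 (adjusted p = 1.28e-12) and Cdc6 0.44 ± 0.05 (adjusted p = 6.01e-09). Of the G1/S regulators 9 were positive, and of the brakes 4 were negative, among them Btg1 (-0.58 ± 0.12, adjusted p = 0.000529). Vegfa (-1.12 ± 0.25, adjusted p = 0.00169), Sdc1 (-1.04 ± 0.28, adjusted p = 0.0126) and Pltp (-0.97 ± 0.26, adjusted p = 0.0129) also passed.

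Few genes of some other programmes that set the extremes apart passed among the middle libraries. The cholesterol biosynthesis list had 0 genes past the threshold in either direction, and a median slope of 0.00, as over all genes tested there. Mvk was at 0.05 ± 0.10. No MHC class II gene passed (median slope -0.06). Of the interferon genes 1 of 20 passed, yet 17 had a slope above 0 and the list median was 0.31, larger than that of the licensing list (0.21). Of the mitosis genes 3 were positive, and Cenpa, at -0.16 ± 0.09, did not pass (adjusted p = 0.244). The middle libraries span a narrower range of scores than the extremes, and a p over the threshold there does not show that a gene was level.

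**Figure D4:**
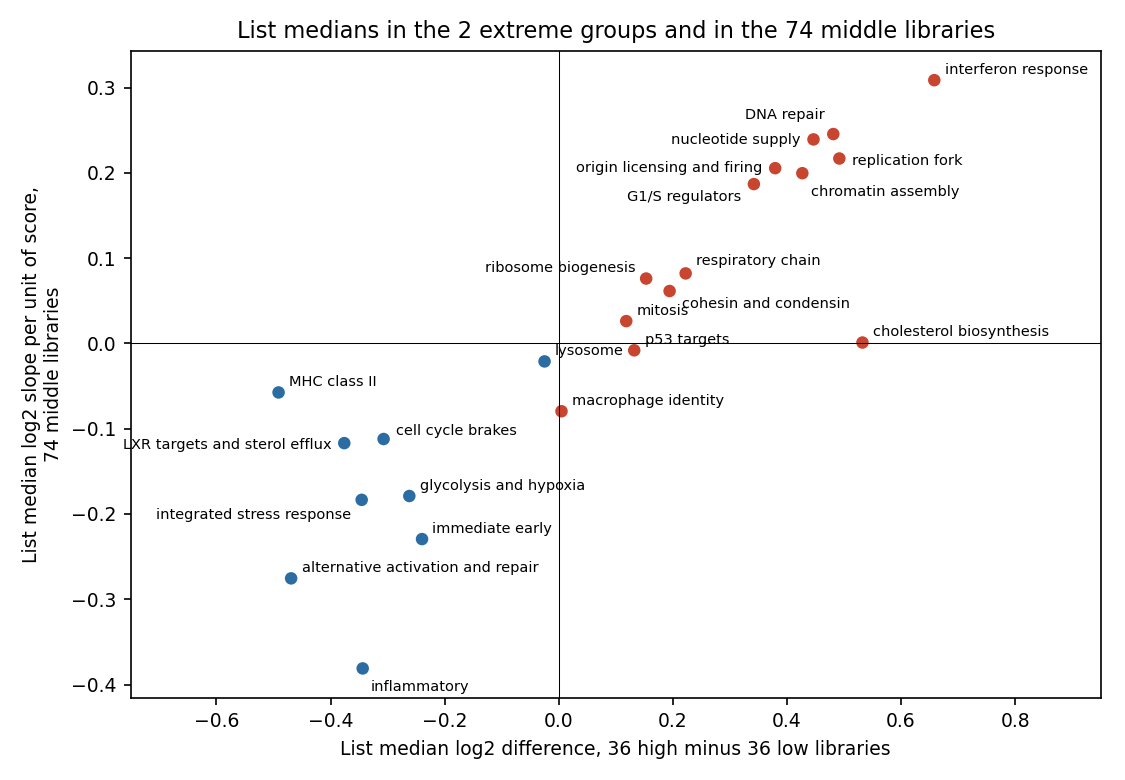
Median log2 difference between the 36 replication-high and 36 replication-low libraries (horizontal axis) against the median log2 slope per unit of MCM score in the 74 middle libraries (vertical axis), 1 point per list, red where the first is above 0 and blue where it is below. The S-phase lists lie above 0 on both axes, as does the interferon response list at 0.66 and 0.31, and cholesterol biosynthesis lies at 0.53 and 0.00.

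By median log2(CPM + 1), with no adjustment for plate, the middle cultures lay nearer to the replication-high ones in most genes of at least 1.5-fold difference. Their median score, 0.21, was also nearer to 0.96 than to -0.98. Plates 3, 4 and 7 held 17, 16 and 16 middle libraries, against 1, 5 and 2 replication-high and 4, 3 and 5 replication-low ones. The part of plate in these medians was not tested, and the share over all tested genes was not computed. Of the 1004 genes that differed by at least 1.5-fold, 979 had a middle median nearer to the replication-high than to the replication-low median, 391 of the 397 higher and 588 of the 607 lower genes. Vegfa had a middle median of 49.5 CPM beside 212 in replication-low and 50.7 in replication-high libraries, and Pltp had 31.4 beside 128 and 36.3. Cenpa had 95.1 beside 137 and 95.2. Timeless lay between, at 38.3 beside 24.2 and 42.7.

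Genes called on each of the plates with most libraries of both groups had the same sign on all. Plates 2, 8 and 10 share no library, and held 10, 6 and 9 replication-high with 7, 7 and 9 replication-low libraries. On plate 2, most replication-low libraries were dated 22/07/2010 or 29/07/2010, labels that held 0 replication-high libraries. Group and collection date can therefore hardly be told apart on that plate. Of 11617 genes tested on all 3, 1073 were called higher on each, 953 lower on each, and 0 were called on all 3 with unlike signs. All tested genes were called higher in 23.1% of cases on plate 2, 15.3% on plate 8 and 14.5% on plate 10, and lower in 23.8%, 15.8% and 14.0%. Within libraries labelled female 6276 genes were called (52.6%) and within those labelled male 4447 (37.6%). A test of the difference between the sexes called 4 genes (0.0337%), all Y-linked, and 0 without the libraries against their label.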

How the data were processed

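The deposited raw counts per gene (22721 genes, whole numbers) of 146 libraries were used. The authors also deposited log2 values from a variance-stabilising transformation for 10893 genes, used for the principal components and 1 alternative score. Per the submitters' processing notes, FastQC, TopHat2 2.0.11 with GRCm38 (mm10), HTSeq 0.6.1 and DESeq2 were used, and per the labels reads were 100 bp paired-end. Identifiers were named from GENCODE M21 (21899 matched; the other 822 held 0.160% of counts). Depth is the column sum.

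Groups came from the MCM score, with 36 libraries each. Counts were tested with edgeR 4.0.16 in R 4.3.3 (filterByExpr, TMM, quasi-likelihood test, plate as covariate), with Benjamini-Hochberg adjustment over all genes and a threshold of 0.05, and the score genes were left out of the counts of calls. The fits were tested on simulated data. A standard error is the log2 difference divided by the square root of F. Alternatives used DESeq2 1.42.0, limma 3.58.1 (voom), other filters, covariates, group sizes and scores, and left out plates or libraries. Permutation tests drew 100000 permutations, two-sided. Each library is labelled as its own sample, and p-values measure the spread between these libraries. Genes with at least 20% of their 50-base stretches in another gene (1 in 8 stretches checked) are marked uncertain; counting by strand is not given in the sources used here.

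The members and gene lists were chosen with earlier results of these data known. Named genes are the list members with the smallest p (up to 6 in the replication, nucleotide, chromatin, G1/S and brake lists, up to 4 in others), markers of other cells, and, outside the lists, the 12 genes of largest difference each way (mean log2 CPM from 1 upwards), skipping unnamed and uncertain genes. Others are said to be picked after their values were seen. Some genes that the rule names are not reported here.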

Additional observations from a re-analysis of the deposited data

Results flagged for a closer look

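A test of whether the difference between replication-high and replication-low cultures itself differed between mice labelled male and female (edgeR quasi-likelihood test, interaction term with plate as covariate) called Kdm5d (9.37), Uty (9.54), Eif2s3y (9.04) and Ddx3y (8.33), as log2 values of male minus female difference. All 4 are Y-linked. Within libraries labelled male, Kdm5d was at -0.26, Uty at -0.27, Eif2s3y at -0.35 and Ddx3y at -0.37 between the groups, and none passed. Among the libraries whose sex-linked transcripts went against the label, 3 were replication-low and 1 replication-high, and without them 0 genes were called.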

How the results depend on the processing

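The number of genes called in the comparison was 8020, and 6857 to 9019 over the alternatives. The count at 1.5-fold depended most on the filter. For higher genes (397) it was 708 with no filter on low counts, 240 with at least 10 counts in every library and 246 with the 48 highest and 48 lowest libraries. For lower genes (607) it was 1029 with DESeq2, 1227 with no filter, 343 with at least 10 counts in every library and 378 with a mitosis score as covariate, an alternative chosen after seeing the data, as were those without male 37 or date labels. In the middle libraries 456 genes, against 1235, were called with collection date in place of plate. The interaction with sex called 0 genes without libraries against their label, against 4. The cause of these changes was not tested, beyond the number of genes that a filter lets in.

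Of 3648 values of 153 named genes under the alternatives, 3598 kept their direction and side of the threshold, 36 lost the call, 2 gained it and 12 reversed. None of the 148 named genes past the threshold reversed, and 14 lost the call under some alternative. The reversed values were all of stromal genes that did not pass. They were Col1a2 at -0.17 and Sparc at -0.062 without plate subtraction, Col3a1 at -0.024 and Sparc at -0.22 with collection date, and Col1a1 at -0.39 with sex as covariate, -0.14 with date, -0.011 with 48 and 48 libraries, -0.28 without plate subtraction, -0.044 without plate 1, -0.19 without plate 7, -0.038 without plate 8 and -0.12 over all 146 libraries. Without plate subtraction the score shared 16 replication-high and 29 replication-low libraries with the groups used here, and with the log2 values 34 and 36. No paired analysis was possible because the replicate numbers follow accession order and pair no samples.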

Other observations

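Among the immediate early genes, 6 of 11 were lower in replication-high cultures (54.5%, against 35.1% of all tested genes) and 3 higher (27.3%, against 32.5%). Dusp1 had medians of 20.3 and 10.7 CPM in replication-low and replication-high libraries (-1.16 ± 0.16), and Egr2 12.97 and 5.61 CPM (-1.15 ± 0.19, with a slope of -1.53 ± 0.33 in the middle libraries), while Fosb, named after its value was seen, was at 0.73. Lower genes outside the lists included Dio2, which activates thyroid hormone (-1.57 ± 0.17), the pyrin gene Mefv (-1.51 ± 0.20), Retnlg (-1.44 ± 0.18) and Nptx1 (-1.80 ± 0.22). Higher genes outside the lists included Sema3c, a secreted semaphorin (1.42 ± 0.22), and Sdc2, syndecan-2 (1.30 ± 0.18), which differed in sign from Sdc1 (-2.24). The lysosomal protease gene Ctsl, uncertain with 25.9% shared, had medians of 2171 and 1397 CPM (-0.93 ± 0.09).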
